A study of Cyprinus carpio with 2 samples.

Results

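The genes described here encode the vesicle traffic machinery of the cell, namely Rab and Arf GTPases, Vps and Sec proteins, sorting nexins, syntaxins, TRAPP subunits and coatomer. They were chosen by name alone. A unigene, a numbered transcript unit of the deposited tables, was a member when the first word of its gene name began with rab, arf, vps, snx, sec or stx and a digit, or with trappc, copb or copg. This gave 339 of 22634 unigenes, carrying 136 of 9494 symbols. One member, the rab11fip3 unigene, has no row in the expression table and comes from the authors' list titled for the testis, which fixed its direction. No row matched copb2, copg or rab7, so these were not analysed here.

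The study sequenced RNA from the immature gonads of juvenile carp (Cyprinus carpio, the common carp) between 110 and 130 days post hatch, with 1 library of testis and 1 of ovary. The labels give no strain, treatment or number of fish per library. Each tissue has 1 library, so differences lack any replicate check and no p-value of a test was calculated. Intervals are exact Clopper-Pearson 95% intervals for the ratio of reads, and cover counting error only. Fewer cells of a type and less RNA per cell cannot be told apart in such bulk samples.

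Vesicle traffic moves proteins and lipids between the membranes of a cell. Coats bend membrane into vesicles, with COPII leaving the endoplasmic reticulum and COPI and clathrin acting at the Golgi and beyond. Arf GTPases recruit coats, Rab GTPases mark each membrane and recruit tethers, and SNARE proteins such as syntaxins fuse the membranes. Retromer and sorting nexins return cargo from endosomes, and HOPS, CORVET and ESCRT complexes act on the way to the lysosome. A growing fish oocyte takes up yolk precursor by endocytosis and stores cortical granules that are secreted at fertilisation. Sertoli cells of the testis engulf cell remnants and hold tight junctions.

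The value columns are headed A and B. Column A was taken as ovary because all 127 unigenes of the authors' ovary list are higher in A, and column B as testis because all 171 of the testis list are higher in B. Every direction below rests on those list titles. All 25 unigenes of the oocyte list lay toward ovary, with 226360 ovary and 13305 testis reads in sum, and all 5 of the testis somatic list toward testis, with 32 and 2303 reads. Of those 5, 2 come only from the authors' testis list, which fixed their direction and also named the column, so they are no check of it. Whether the others are in that list too was not examined, so none of the 5 is taken as a check of the columns. Oocyte transcripts were thus read in the testis library too. Skeletal muscle markers had 983 ovary and 48 testis reads, with 6 of 7 tested unigenes at least 4-fold higher in ovary. Liver and pancreas markers had 670 and 59 reads, with 4 of 11 unigenes that far toward ovary and 1 toward testis. Leukocyte markers had 3466 and 578 reads, with 3 of 11 toward ovary and 5 toward testis. The il1b unigene alone held 2308 of those ovary reads. Among the 11, 1 comes only from the authors' testis list, which fixed its direction. Erythrocyte markers had 980 and 673 reads, with 2 of 8 toward testis, both of tfr1b. The erythrocyte list found only epb41b, tfr1a and tfr1b unigenes, and none of haemoglobin. Its tfr1a unigene, with 609 and 133 reads, was the 1 of 9 below the median of all unigenes. No marker unigene listed was at 0 in either library. Outside the authors' testis list no unigene at all was at 0, since the lowest values were 2.31 units in ovary and 1.73 in testis. The absence of a 0 thus does not show that a cell type was present in both libraries. The part of other tissues in the differences below was not tested.

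The members held 32526 ovary reads and 27337 testis reads, or 0.754% of all 4311799 ovary reads and 1.42% of all 1926860 testis reads in the tables. A read here is 1 step of the deposited values. The middle member had 48 ovary and 46 testis reads. Read numbers grow with transcript length, which the files do not give, so levels of different genes are not compared. As deposited, ovary was 1.78-fold above testis in the median unigene, and folds for single unigenes below are relative to that median. The relative score of a unigene is log2 of testis over ovary, each with 1 unit added, minus the median of all unigenes. A score above 0 leans to testis, and an N-fold lean toward a tissue is the ratio of reads relative to the median, with no unit added.

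Most vesicle traffic unigenes were less than 4-fold apart in the 2 libraries, as were most of all unigenes. This held for 270 of the 326 members that reached 5 units in one library or both, and for 16243 of 21649 unigenes in all. At a 2-fold threshold, 97 members lay toward testis and 57 toward ovary, beside 27.3% and 27.2% of all unigenes. There were 40 members at least 4-fold higher in testis, or 12.3%, where the share over all unigenes was 13.8%. In ovary there were 16, or 4.91%, where the share over all unigenes was 11.2%. The share toward testis was thus near the background, and that toward ovary was below it. The median relative score of the members was 0.43, with quartiles of -0.57 and 1.12, where those of all unigenes were -1.06 and 1.11. This split follows the scaling. As deposited, 16 members lay 4-fold or more toward testis and 45 toward ovary, beside 6.14% and 23.2% of all unigenes. With equal total reads the members numbered 76 and 7, beside 23.2% and 5.46%.

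**Figure D1:**
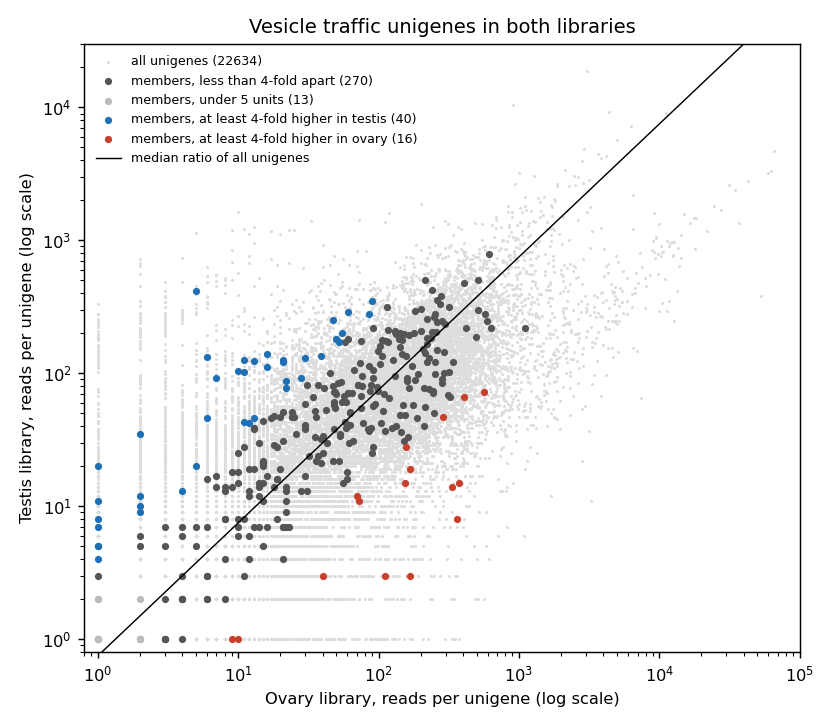
Reads per unigene in the ovary library (horizontal, log scale) and the testis library (vertical, log scale). Grey points are all 22634 unigenes, larger points the 339 members, and the line is the median ratio of all unigenes. The 40 members at least 4-fold higher in testis lie above the line and the 16 at least 4-fold higher in ovary below it.

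With only counting error allowed for, many members were still apart from the median. The interval of the read ratio excluded the median ratio toward testis for 135 of the 339 members, beside 27.5% of all unigenes, and toward ovary for 73, beside 30.1%. Among the 40 testis members it did so for 37, and among the 16 ovary members for 15. The exceptions were members of few reads, such as a vps13a unigene (Unigene_20364) with 9 ovary reads and 1 testis read. The values next to the threshold were -2.05 for stx3a and -1.98 for a vps72 unigene on the ovary side, and 2.03 for rab33a and 1.97 for a vps13a unigene on the testis side.

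The direction of a member moved with its unigene number. The numbers were divided, with earlier results known, into a lower range up to 23679 and a higher range from 23712 on. All 40 testis members are in the higher range, and all 16 ovary members in the lower. The same break ran through the whole table. In the lower range, the share of all unigenes 4-fold or more toward testis was 0.2% and that toward ovary 19.4%, whereas in the higher range the shares were 29.1% and 1.89%. The median relative score was -0.49 for the 160 members of the lower range and 1.07 for the 179 of the higher, where all unigenes had -0.86 and 1.14. Set against the median of its own number range, 13 members were at least 4-fold higher in testis, beside 5.45% of all unigenes, and 15 lay that far toward ovary, beside 7.29%. What the numbers stand for is not given in the sources used here, and their part in the differences was not tested.

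**Figure D2:**
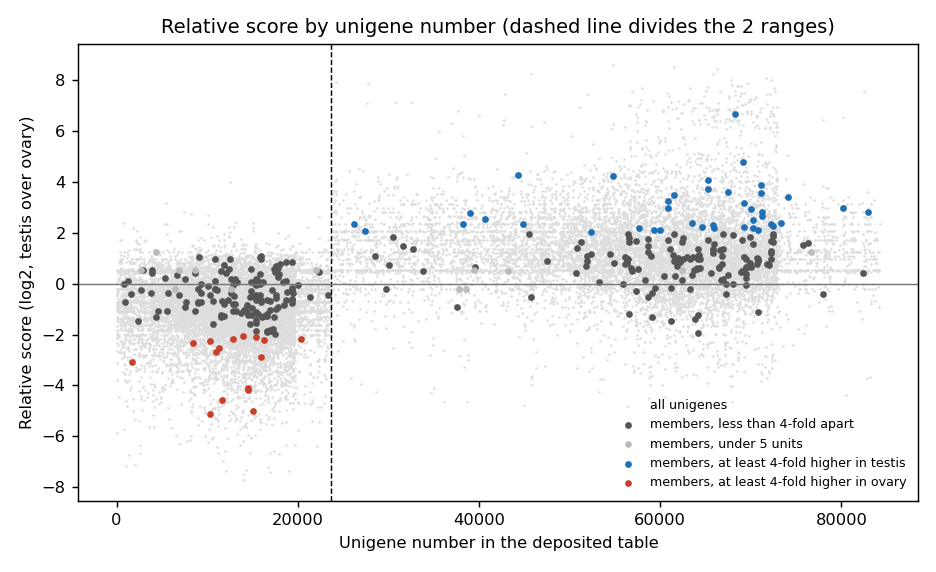
Relative score (vertical, log2 of testis over ovary) against the number in the unigene's name (horizontal). Grey points are all unigenes, larger points the members, and the dashed line divides the lower from the higher range. All 16 members at least 4-fold higher in ovary lie left of it and all 40 at least 4-fold higher in testis lie right of it.

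Because several unigenes can carry the symbol of a gene, their reads were also summed. Symbols are set against the median of all 9494 symbols, which was 2.11-fold higher in ovary as deposited. Of 135 member symbols with at least 5 units, 11 were at least 4-fold higher in testis, beside 7.98% of all symbols, and 6 in ovary, beside 10.6%. The testis symbols were rab11fip3, vps13c, vps26a, rab40c, rab12, snx9a, arf3b, sec31a, sec31b, rab3gap2 and sec23a. The ovary symbols were snx10a, rab25b, rab42b, rab33ba, snx15 and sec22c. Of these 17 symbols, 9 have unigenes in both number ranges and 8 in only one. In ovary 5 of the 6 rest on a single unigene of the lower range.

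**Figure D3:**
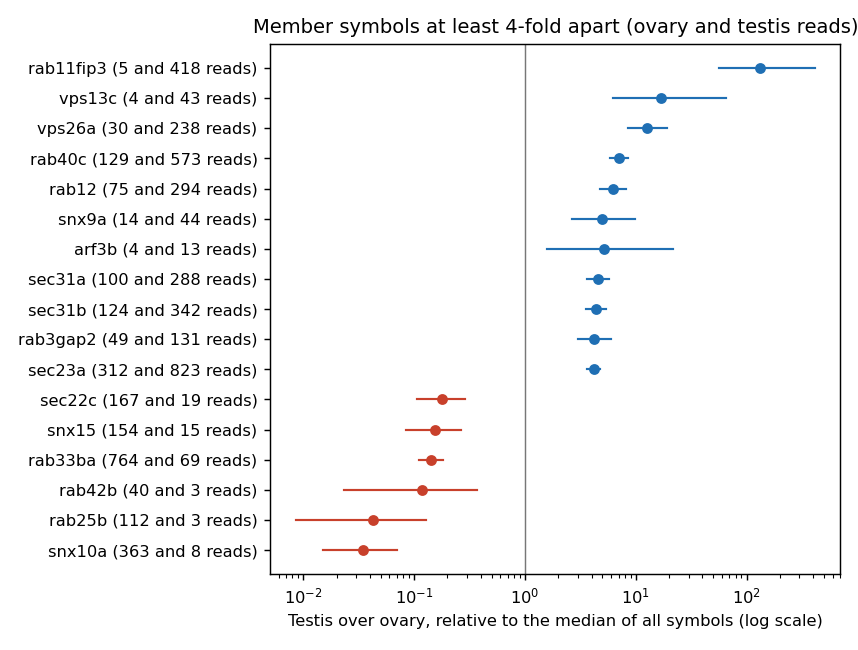
Testis over ovary for the 17 member symbols at least 4-fold apart, with unigenes summed, relative to the median of all symbols (log scale). Points are ratios, lines their exact 95% intervals for counting error, and the labels give ovary and testis reads. The 11 testis symbols run from 4.18-fold for sec23a to 133-fold for rab11fip3, and the 6 ovary symbols from 5.54-fold for sec22c to 28.6-fold for snx10a.

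Rab GTPases, the switches that give a membrane its identity, held members far out on both sides. Of 78 unigenes, 76 had at least 5 units, and 11 of these lay 4-fold or more toward testis and 8 toward ovary. Their median relative score was 0.20. These shares, 14.5% and 10.5%, were both near the 13.8% and 11.2% of all unigenes. The counts within number ranges were 3 and 9, where the shares of all unigenes were 5.45% and 7.29%. Among 34 Rab symbols with unigenes summed, 2 lay 4-fold or more toward testis and 3 toward ovary. These were 5.88% and 8.82%, beside 7.98% and 10.6% of all symbols.

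The Rab unigene farthest toward ovary was rab3da, a Rab of regulated secretion. Its Unigene_10277 had 167 ovary and 3 testis reads and leaned 41.7-fold (95% interval 14 to 204) toward ovary. A second rab3da unigene (Unigene_10276) had 72 and 11 reads and leaned the same way by 4.91-fold. The third (Unigene_57636), with 12 and 42 reads, was 4.67-fold higher in testis. The 3 rab3da unigenes thus did not share a direction, and summed they held 251 ovary and 56 testis reads. That sum leaned 2.83-fold (95% interval 2.11 to 3.85) toward ovary relative to the median symbol.

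The single rab25b unigene, a Rab of apical recycling in mammalian epithelia, had 112 ovary and 3 testis reads. It leaned 28-fold (95% interval 9.34 to 138) toward ovary. For rab33ba, a Golgi Rab that also binds autophagy factors in mammals, 2 unigenes had 375 and 333 ovary reads against 15 and 14 testis reads. They were 18.7-fold (95% interval 11.2 to 33.8) and 17.8-fold (95% interval 10.5 to 33) higher in ovary. The remaining rab33ba unigenes had 47 ovary reads against 22 from testis, and 9 against 18. The last of these leaned to testis, while all 4 summed, at 764 and 69 reads, leaned 6.98-fold (95% interval 5.45 to 9.07) toward ovary relative to the median symbol.

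Other Rab unigenes leaned to ovary by less. The rab42b unigene had 40 ovary and 3 testis reads, a 10-fold lean toward ovary (95% interval 3.18 to 50.5). The most uneven rab9a unigene (Unigene_16279), of a Rab that acts between late endosomes and the Golgi, had 404 and 66 reads, a 4.59-fold (95% interval 3.53 to 6.05) difference. The rab32a unigene, of a Rab of lysosome-related organelles, had 288 and 47 reads, a 4.6-fold lean toward ovary (95% interval 3.37 to 6.4). Both rab13 unigenes, of a Rab found at tight junctions, are in the higher range and still leaned to ovary. The larger had 1104 ovary and 218 testis reads, the most ovary reads of any member, and a relative score of -1.93. Within its number range that score was -3.07. Both rab11al unigenes also leaned to ovary, with 315 and 69 reads and 246 and 71 reads.

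Toward testis, rab12, a Rab of recycling endosomes and lysosomes, led the GTPases. It had 7 ovary and 93 testis reads in Unigene_65271 and 10 and 104 reads in Unigene_65272, or 17.7-fold (95% interval 8.26 to 45.3) and 13.9-fold (95% interval 7.25 to 29.8) higher in testis. The remaining rab12 unigenes had 10 and 25 reads, and 48 and 72 reads. All 4 thus leaned to testis relative to the median, including the one of the lower range. Summed, rab12 had 75 ovary and 294 testis reads, a 6.22-fold lean toward testis (95% interval 4.81 to 8.12) relative to the median symbol.

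For rab40c, a Rab with a SOCS box that joins a ubiquitin ligase, the 3 unigenes had 47 and 251, 61 and 291, and 21 and 31 ovary and testis reads. All leaned to testis, and the sum was 7.05-fold (95% interval 5.81 to 8.6) higher there relative to the median symbol. Of the 4 rab41 unigenes, Unigene_60872 had 6 ovary and 46 testis reads, a 10.2-fold (95% interval 4.35 to 29.3) difference. Rab41 summed to 181 and 358 reads and a relative score of 1.63, under the 4-fold threshold.

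Rabs that define the main compartments were less than 4-fold apart after summing. For rab5ab, of the early endosome, Unigene_17826 had 75 ovary and 68 testis reads and Unigene_59362 28 and 92. Only the second was over 4-fold higher in testis, at 4.38-fold (95% interval 2.84 to 6.95). Their sum leaned 2.46-fold (95% interval 1.91 to 3.19) toward testis relative to the median symbol. The recycling Rab rab11a summed to 832 ovary and 485 testis reads, a relative score of -0.13, and its interval held the median. Its relative rab11al, at 561 and 140 reads, leaned 2.53-fold (95% interval 2.1 to 3.06) toward ovary. Of the Rab1 forms, which act between the endoplasmic reticulum and the Golgi, rab1aa, rab1ab and rab1ba had relative scores of 1.68, 1.29 and 1.17 and rab1bb -0.56. The Rab1 genes thus leaned different ways against the median symbol. The rab1ab and rab1ba unigenes are all in the higher number range. Their scores within that range were -0.09 for rab1ab and -0.23 and -0.17 for rab1ba. Within the lower and higher ranges rab1bb had scores of -0.09 and -1.42, and rab1aa 0.95 and 1.79.

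Proteins named for the Rab they bind were counted apart from the GTPases. Of 24 such unigenes with at least 5 units, 6 lay 4-fold or more toward testis and 1 toward ovary, or 25% and 4.17%, beside 13.8% and 11.2% of all unigenes. Their median relative score was 0.47. Set against their own number ranges, 2 lay that far toward testis and 0 toward ovary. The member farthest from the median was rab11fip3, which couples Rab11 to motors and acts in cytokinesis. It had 5 ovary and 418 testis reads, a 111-fold lean toward testis (95% interval 47.4 to 345). This is the unigene known only from the authors' testis list, so its direction was fixed by that choice. The counts of 6 and of 2 toward testis above include it. Next was a rab11fip5a unigene (Unigene_69178) that is in the expression table, with 6 and 132 reads, 29.3-fold (95% interval 13.1 to 81.4) higher in testis.

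Of the other rab11fip5a unigenes only Unigene_39028, with 2 ovary and 12 testis reads, was also over 4-fold higher in testis. The remaining 5 had between 4 and 21 ovary reads and between 2 and 15 testis reads. All 7 summed to 73 and 181 reads, a relative score of 1.95 against the median symbol. For rab3gap2, the regulatory subunit of the Rab3 GTPase-activating complex, 9 unigenes summed to 49 ovary and 131 testis reads. This sum leaned 4.24-fold (95% interval 3.03 to 6.02) toward testis. Its catalytic partner rab3gap1, with 181 and 294 reads, leaned 2.58-fold (95% interval 2.13 to 3.12) toward testis relative to the median symbol. Both subunits of this complex thus leaned to testis relative to the median symbol. The rab3gap1 unigene is in the higher number range, and its score within that range was -0.03. Summed within ranges, rab3gap2 had relative scores of -0.11 in the lower and 2.05 in the higher. The rab3ip unigenes, of an exchange factor for Rab8, ranged from 10 ovary and 1 testis reads to 13 and 39 and summed to 49 and 67, a relative score of 1.10.

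Arf GTPases, which recruit coats, were close to the median. Of 18 unigenes 3, or 16.7%, lay 4-fold or more toward testis and 0 toward ovary, beside 13.8% and 11.2% of all unigenes. Their median relative score was 0.11, and within their number ranges 1 lay that far toward testis. For arf1, which recruits COPI at the Golgi, Unigene_59959 had 52 ovary and 171 testis reads, 4.38-fold (95% interval 3.2 to 6.1) higher in testis. The arf1 unigenes of the lower range had 212 and 77 reads, and 66 and 31 reads, and leaned to ovary. Summed, arf1 held 330 and 279 reads, a relative score of 0.41.

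The same held for arf6a, an Arf of the cell surface that acts in endocytosis. Its Unigene_61551 had 16 ovary and 139 testis reads, an 11.6-fold lean toward testis (95% interval 6.89 to 20.8). The other 5 arf6a unigenes had between 112 and 253 ovary reads and between 37 and 166 testis reads. With all 6 summed, at 887 and 594 reads, arf6a leaned 1.06-fold (95% interval 0.956 to 1.18) toward testis relative to the median symbol, an interval that holds 1. The sums of arf2a, at 898 and 880 reads, and arf5, at 515 and 506, both had relative scores of 0.62. The third Arf unigene past the threshold, of arf3b, had 1 ovary and 8 testis reads.

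**Figure D4:**
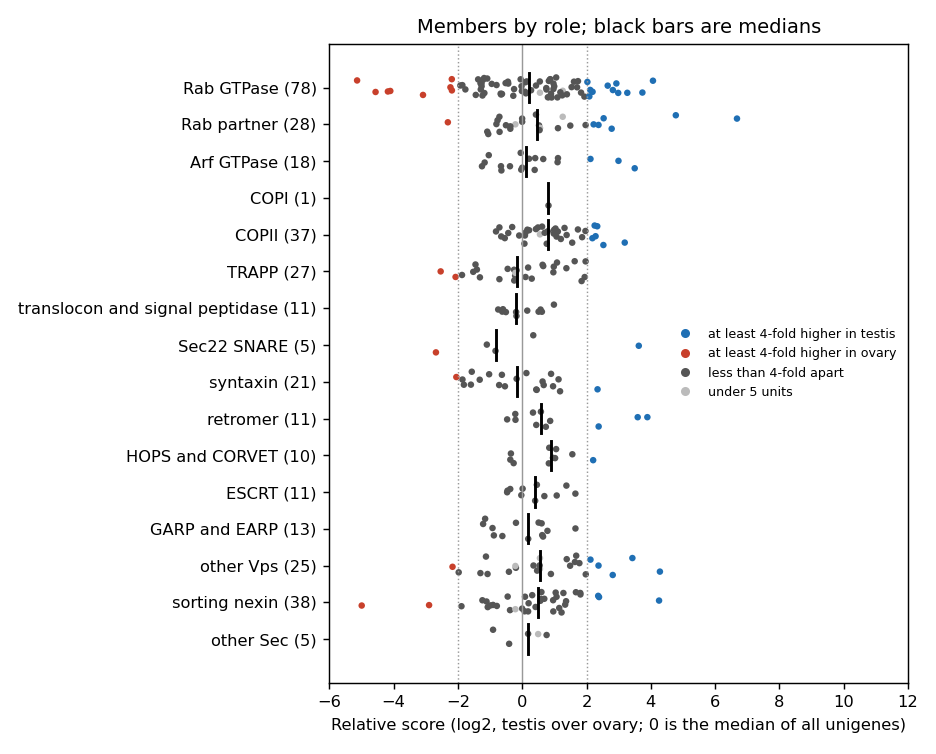
Relative score of each member (horizontal, log2 of testis over ovary, with 0 at the median of all unigenes) by role, with the number of unigenes in brackets. Black bars are medians and dotted lines mark 4-fold. The median was 0.79 for COPII and -0.83 for the 5 Sec22 unigenes, and the Rab GTPases reach farthest toward ovary.

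The coat of COPII vesicles, which carry new proteins out of the endoplasmic reticulum, held 3 of the 11 testis symbols. Of 37 unigenes, 36 had at least 5 units, and 6 of them, or 16.7%, lay 4-fold or more toward testis and 0 toward ovary, beside 13.8% and 11.2% of all unigenes. The share toward testis was near the background. The median relative score was 0.79, and 30 of the 37 lay above the median of all unigenes, with 23 of the 37 in the higher number range. Within their number ranges the median was 0.43, and 1 unigene lay 4-fold or more toward testis. For 17 unigenes, or 45.9%, the interval excluded the median ratio toward testis and for 0 toward ovary, beside 27.5% and 30.1% of all unigenes.

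Both layers of the coat held such members. The 5 unigenes of sec23a, of the inner coat, summed to 312 ovary and 823 testis reads and leaned 4.18-fold (95% interval 3.67 to 4.78) toward testis relative to the median symbol. Among them Unigene_72457 had 115 and 315 reads and Unigene_72455 had 55 and 202. In the outer coat, sec31a summed to 100 and 288 reads, 4.57-fold (95% interval 3.63 to 5.79), and sec31b to 124 and 342 reads, 4.37-fold (95% interval 3.55 to 5.42) higher in testis. Within sec31b, Unigene_69228 stood farthest out, at 16 and 112 reads. Summed within ranges, sec31a had relative scores of -0.37 in the lower and 2.32 in the higher, and sec31b -0.14 and 2.40. The medians of all unigenes there were -0.86 and 1.14. Against the median of all unigenes, only the higher-range unigenes of sec31a and sec31b thus leaned to testis in sum. The sec23a sums leaned to testis in both ranges, with 1.09 in the lower. The cargo-binding subunits differed less, with sums of 420 and 544 reads for sec24a, 312 and 268 for sec24b and 205 and 209 for sec24c. Their relative scores were 1.02, 0.43 and 0.68. The sums of sec23b, at 124 and 125 reads, and sec13, at 242 and 203, also stayed under 4-fold, and sec16b had 1 read in each library.

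In the COPI coat, which returns vesicles to the endoplasmic reticulum, the one measured member was copb1, the beta subunit. It had 608 ovary and 789 testis reads, the most testis reads of any member. Its relative score was 0.79. Outside the rule, copa, the alpha subunit, was similar with 627 and 894 reads and a relative score of 0.92. The other COPI unigenes outside the rule lay on the ovary side, at -0.30 for cope and -0.59 and -0.14 for copz1. The copb1 and copa unigenes are both in the higher number range, and the copb1 score within that range was -0.35.

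TRAPP subunits, which tether vesicles and activate Rab1 and Rab11, went both ways. Of 26 unigenes with at least 5 units 0 lay 4-fold or more toward testis and 2, or 7.69%, toward ovary, beside 13.8% and 11.2% of all unigenes, with a median relative score of -0.18. The trappc6b unigene numbered 11330 had 560 ovary and 72 testis reads, a 5.83-fold lean toward ovary (95% interval 4.56 to 7.56). The other trappc6b unigene had 134 and 40 reads and leaned the same way. The related trappc6bl summed to 329 and 107 reads and trappc13 had 324 and 66, with relative scores of -0.97 and -1.64 against the median symbol. The core subunit trappc3 had 87 and 74 reads, a score of 0.42, and trappc8, with 6 unigenes and 66 and 146 reads in sum, one of 1.79. The other summed subunits ran from -0.64 for trappc5 to 1.12 for trappc10, so the complex spread over both sides of the median. The trappc13, trappc5 and trappc3 unigenes are all in the lower number range. Summed within the lower and higher ranges, trappc8 had relative scores of -0.66 and 1.65, trappc10 -0.23 and 1.24, and trappc6b -2.54 and -1.32. Set against their own ranges, 0 TRAPP unigenes lay 4-fold or more toward testis and 2 toward ovary. Those 2, of trappc6b (Unigene_59102) and trappc6bl (Unigene_61192), are not the 2 counted above.

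No unigene of the protein-conducting channel of the endoplasmic reticulum or of signal peptidase was 4-fold apart. These 11 unigenes had a median relative score of -0.18. Over all unigenes 13.8% lay 4-fold or more toward testis and 11.2% toward ovary. The channel subunit sec61al1 had 5 unigenes, from 88 ovary and 39 testis reads to 291 and 144, all in the lower range. They summed to 950 and 528 reads, a relative score of -0.20. The sec61g unigene had 247 and 264 reads, and the sec61b unigene, whose deposited protein name is that of an alpha subunit, 251 and 280. The sum of sec62, which assists the channel, was 356 and 454 reads, and sec63 had 220 and 184. Signal peptidase sec11a had 417 and 220 reads and a relative score of -0.27 among symbols.

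SNARE proteins, which drive membrane fusion, included the Sec22 genes and the syntaxins. The sec22c unigene had 167 ovary and 19 testis reads, a 6.59-fold lean toward ovary (95% interval 4.09 to 11.2). The 2 sec22bb unigenes had 13 and 124 reads, and 147 and 140 reads. Only the first was over 4-fold apart, 12.7-fold (95% interval 7.17 to 24.6) higher in testis. Both unigenes of its paralogue sec22ba leaned to ovary, with 588 and 248, and 632 and 221 reads. The copies of sec22b thus differed, with relative scores of 1.37 for sec22bb and -0.73 for sec22ba after summing. Both sec22ba unigenes are in the lower number range and both sec22bb unigenes in the higher. Gene copy and number range cannot be told apart here.

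Of 21 syntaxin unigenes 1 lay 4-fold or more toward testis and 1 toward ovary, or 4.76% each beside 13.8% and 11.2% of all unigenes, with a median relative score of -0.18. The one in ovary was stx3a, a syntaxin of the apical surface in mammalian epithelia, with 157 ovary and 28 testis reads, 4.21-fold (95% interval 2.8 to 6.53). The one in testis was a stx16 unigene (Unigene_38237), of the trans-Golgi network, with 11 and 43 reads, 5.21-fold (95% interval 2.64 to 11.2). After summing, no syntaxin symbol was 4-fold apart. The symbols lowest in relative score were stx3a, stx11a, stx8, stx2b and stx11b.2, at -1.82, -1.36, -1.34, -1.09 and -0.99. The highest were stx16, stx5a, stx17 and stx12, at 1.91, 1.36, 1.32 and 1.19. Of these, stx3a, stx11a, stx8 and stx2b rest on the lower number range alone and stx5a and stx12 on the higher alone. The median relative scores of all unigenes in those ranges were -0.86 and 1.14. The Golgi syntaxin stx5al had 310 ovary and 229 testis reads in sum and a score of 0.21.

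Retromer, which retrieves receptors from endosomes, had 3 of 11 unigenes, or 27.3%, 4-fold or more toward testis and 0 toward ovary, beside 13.8% and 11.2% of all unigenes. The median relative score was 0.58, and within their number ranges 2 lay that far toward testis. The 3 all encode Vps26, the arrestin-like subunit. The larger vps26a unigenes had 11 ovary reads each and 127 and 103 testis reads, or 15.4-fold (95% interval 8.32 to 31.6) and 12.5-fold (95% interval 6.69 to 25.8) higher in testis. A vps26b unigene (Unigene_63548) had 22 and 87 reads, a 5.27-fold (95% interval 3.27 to 8.84) difference. Summed, vps26a held 30 and 238 reads, a 12.6-fold lean toward testis (95% interval 8.59 to 19.1) relative to the median symbol.

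The other retromer subunits differed less. The scaffold vps35 summed to 355 ovary and 478 testis reads, 2.14-fold (95% interval 1.86 to 2.46) higher in testis. Its 2 unigenes lie in different number ranges and had relative scores of 0.87 in the lower and 0.73 in the higher range. The vps29 unigene had 178 and 200 reads, 1.78-fold (95% interval 1.45 to 2.19) higher in testis relative to the median symbol. It is in the higher number range, where the median relative score of all unigenes was 1.14. The intervals of vps35 and vps29 overlap each other and lie below that of vps26a. The sum of vps26b, at 132 and 168 reads, leaned 2.02-fold (95% interval 1.6 to 2.56) toward testis, whereas vps26bl had 78 and 42 reads and an interval that held the median. By number range, vps26b had relative scores of -0.22 in the lower and 1.48 in the higher.

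HOPS and CORVET tethers, which act before fusion with late endosomes and lysosomes, had 1 of 10 unigenes at least 4-fold apart. This was a vps39 unigene (Unigene_65907) with 13 ovary and 46 testis reads, 4.72-fold (95% interval 2.51 to 9.52) higher in testis. The shares were thus 10% toward testis and 0% toward ovary, beside 13.8% and 11.2% of all unigenes. Among symbols vps39, vps16 and vps8 had relative scores of 1.90, 1.29 and 1.26, while vps11 and vps18 had 0.48 and -0.12. Over the whole group 7 of 10 unigenes had scores above 0, with 7 of the 10 in the higher number range. Set against their own ranges, the median was 0.17 and 0 were 4-fold apart.

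ESCRT members, which sort ubiquitinated cargo into endosomes, had 0 of 11 unigenes 4-fold apart and a median relative score of 0.40. Over all unigenes 13.8% lay 4-fold or more toward testis and 11.2% toward ovary. For 54.5% of ESCRT unigenes the interval excluded the median ratio toward testis and for 9.09% toward ovary, beside 27.5% and 30.1% of all unigenes. The ATPases vps4a, with 275 ovary and 333 testis reads, and vps4b, with 431 and 429 in sum over 6 unigenes, had scores of 0.92 and 0.64. Both scores are against the median symbol. The vps28 unigene had 259 and 150 reads and an interval that held the median of symbols. GARP and EARP subunits, which tether vesicles at the trans-Golgi and at recycling endosomes, also had 0 of 13 unigenes 4-fold apart. The shares of all unigenes were again 13.8% toward testis and 11.2% toward ovary. The most uneven GARP and EARP sum was that of vps52, at 406 and 729 reads, 2.85-fold (95% interval 2.52 to 3.22) higher in testis. The sums of its partners vps51, vps53 and vps54 had intervals that held the median.

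The remaining Vps unigenes have other functions, and 5 of 22 lay 4-fold or more toward testis and 1 toward ovary, or 22.7% and 4.55%, beside 13.8% and 11.2% of all unigenes. Their median relative score was 0.55, with 16 of the 25 unigenes in the higher range. Against the median of their own ranges, 2 lay that far toward testis and 1 toward ovary. Vps13 proteins transfer lipids between membranes. The 3 vps13c unigenes summed to 4 ovary and 43 testis reads, 17.1-fold (95% interval 6.2 to 65.4) higher in testis, and 35 of those testis reads came from Unigene_44306. All 3 are in the higher range. The 13 vps13a unigenes, the most for any member symbol, summed to 281 and 515 reads and leaned 2.91-fold (95% interval 2.51 to 3.37) toward testis. Single vps13a unigenes ran from a relative score of -2.17 (Unigene_20364) to 3.43 (Unigene_74136), both with 1 read in the lower library.

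Despite its name, vps72 encodes a subunit of chromatin remodelling complexes. Its 4 unigenes had 212 and 40, 59 and 61, 295 and 101, and 85 and 279 ovary and testis reads. One of them leaned 4.38-fold (95% interval 3.42 to 5.65) toward testis, and the sum of 651 and 481 reads had a relative score of 0.21. The sum of vps45, a partner of endosomal SNAREs, was 32 and 68 reads, 3.37-fold (95% interval 2.18 to 5.3) higher in testis. The vps9d1 sum of 309 and 145 reads leaned to ovary by 1.34-fold.

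Sorting nexins, which bind endosomal lipids and carry cargo, had 3 of 37 unigenes 4-fold or more toward testis and 2 toward ovary, or 8.11% and 5.41%, beside 13.8% and 11.2% of all unigenes. The median relative score was 0.49, but 0.04 within their number ranges, where 1 lay that far toward testis and 3 toward ovary. The farthest toward ovary was snx10a, an endosomal nexin needed by osteoclasts in mammals. Its unigene had 363 ovary and 8 testis reads, a 34-fold lean toward ovary (95% interval 17.1 to 79.4). The snx15 unigene had 154 and 15 reads, 7.7-fold (95% interval 4.53 to 14.1) higher in ovary. Each is the only unigene of its symbol, and both are in the lower range. Against the median of that range their scores were -4.13 and -2.04.

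Nexins that work with retromer leaned to testis in part. The snx1a sum over 4 unigenes was 718 ovary and 1226 testis reads, 2.71-fold (95% interval 2.47 to 2.97) higher in testis, and its largest unigene in testis (Unigene_72172) had 241 and 423 reads. The related snx2 summed to 263 and 442 reads, 2.67-fold (95% interval 2.28 to 3.12) higher in testis. The other copy of snx1, snx1b, went the opposite way, with 279 and 67 reads and a 2.63-fold (95% interval 2 to 3.48) difference toward ovary. The intervals of the snx1 copies do not overlap. For snx3 and snx27b, which also act with retromer, the sums of 137 and 183, and 159 and 161 reads gave relative scores of 1.06 and 0.67.

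Nexins of endocytosis at the cell surface were split between copies as well. The snx9a unigenes held few reads, 14 from ovary and 44 from testis, 4.99-fold (95% interval 2.68 to 9.85) higher in testis. The one farthest from the median had 1 and 20 reads. Its paralogue snx9b, at 713 and 307 reads, leaned 1.46-fold (95% interval 1.28 to 1.68) toward ovary. Both snx9b unigenes are in the lower number range, and 3 of the 4 snx9a unigenes in the higher. The snx18a unigene had 158 and 136 reads and a score of 0.43 against the median symbol. The lipid transfer gene sec14l1, which is no part of a coat, summed to 305 and 211 reads over 5 unigenes, and its interval held the median.

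Unigenes of one symbol disagreed often. Of 86 member symbols with more than 1 unigene, 49, or 57%, had unigenes on both sides of the median of all unigenes. Over all 6023 such symbols it was 55.1%. For 2 member symbols, rab3da and vps13a, one unigene was at least 4-fold higher in testis and another at least 4-fold higher in ovary. The widest ranges of relative score, among unigenes with at least 10 units, were 7.32 for rab3da, 5.87 for rab11fip5a, 5.59 for vps13a, 5.57 for rab33ba, 4.75 for arf6a and 4.28 for rab3ip.

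The disagreement followed the unigene number. In 67 of the 71 member symbols with unigenes in both ranges, those of the higher range leaned more to testis than those of the lower. The median difference was 1.59 on the log2 scale. Over all 4490 such symbols the share was 95.8% and the median difference 1.67, so the members did as the rest of the table. The exceptions were rab35b, vps35, sec14l1 and snx27b, at -1.15, -0.13, -0.08 and -0.04. For rab35b the lower-numbered unigene had 99 ovary and 73 testis reads and the other 230 and 76. The authors' counting could divide reads among near-identical unigenes, so values of single unigenes are uncertain.

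**Figure D5:**
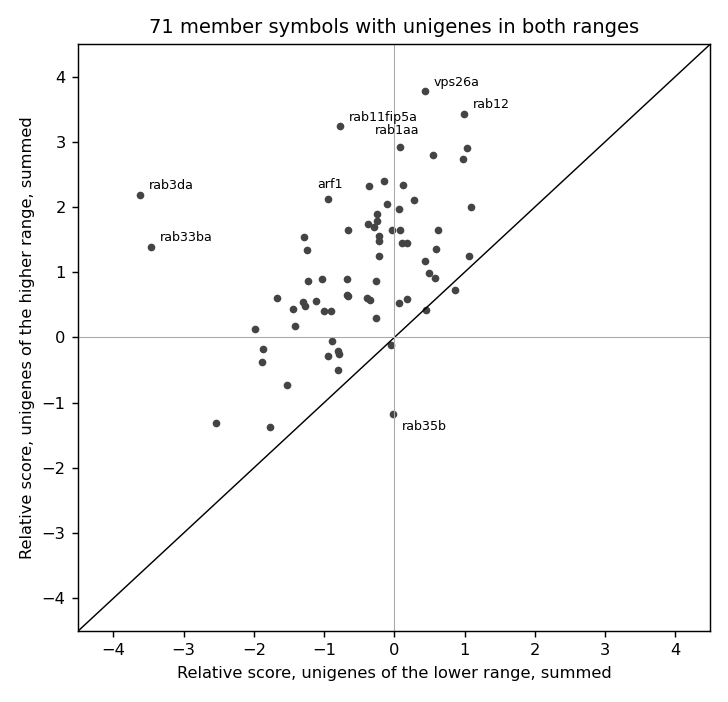
Relative score (log2 of testis over ovary) of the 71 member symbols with unigenes in both number ranges, for unigenes of the lower range (horizontal) and the higher range (vertical), summed within each range. The line marks equal scores, and 67 symbols lie above it. The differences were 5.81 for rab3da, 4.85 for rab33ba and -1.15 for rab35b.

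Among the 339 members, 3 had a p-value of the authors below 0.05, beside 1.39% of all unigenes. Both sides include rows present only through the authors' testis list, 147 among all unigenes and rab11fip3 among the members. The comparison thus rests in part on the authors' own choice of unigenes, and no conclusion is drawn from it. They were rab3da (Unigene_10277) with a log2 fold change of -6.21 and p = 0.0300, snx10a with -5.92 and p = 0.0308, and rab11fip3 with 5.98 and p = 0.0424, all in the authors' deposited table or testis list. Of these, rab3da and snx10a are in the authors' ovary list. How those p-values were obtained from 1 library per tissue is not given in the sources used here.

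Genes of the same pathways that the name rule does not take were counted in 12 lists. Golgins are coiled-coil tethers of the Golgi. Their list, whose name pattern also admits gorasp, bicd and golga7bb, had the highest median of these lists, a relative score of 1.80. Of 30 unigenes of that list, 14 lay 4-fold or more toward testis and 2 toward ovary, or 46.7% and 6.67%, beside 13.8% and 11.2% of all unigenes. Within their number ranges the median was 1.44, and 9 lay that far toward testis and 0 toward ovary. A golga4 unigene had 2 ovary and 37 testis reads and a golgb1 unigene (Unigene_64957) 2 and 30, while golgb1 Unigene_2570 had 14 and 2. The list of dynamins and endophilins, which act in pinching off vesicles, also admits amph, bin, eea1 and ehd genes. It had a median of -0.90, with 4 of 32 unigenes 4-fold or more toward testis and 3 toward ovary. These were 12.5% and 9.38%, near the shares of all unigenes. The median within number ranges was -0.45. The ehd2b unigene had 779 and 78 reads, and 2 unigenes of dnm3a had 1 ovary read each and 119 and 109 testis reads, one of them in the authors' testis list.

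SNAREs and fusion factors outside the rule had 5 of 32 unigenes 4-fold or more toward ovary and 3 toward testis, or 15.6% and 9.38%, beside 11.2% and 13.8% of all unigenes. Their median was -0.63, with 25 of the 32 in the lower number range. Within their number ranges the median was 0.13, on the other side, and 2 lay 4-fold or more toward ovary and 0 toward testis. Among them bet1l, a SNARE of the Golgi, had 252 and 35 reads and stxbp3, a syntaxin-binding protein, 38 and 140. Rab regulators had 20 of 110 unigenes 4-fold or more toward testis and 8 toward ovary, or 18.2% and 7.27%, beside 13.8% and 11.2% of all unigenes. Their median was 0.47, and within their number ranges 9 lay that far toward testis and 1 toward ovary. The regulator dennd2db had 8 and 148 reads. Arf regulators and Arl GTPases had 14 and 8 of 101, or 13.9% and 7.92%, with a median of 0.09, and arl5c had 6 and 91 reads.

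The other lists are set beside the 13.8% toward testis and 11.2% toward ovary of all unigenes. Adaptors and clathrin had 6 and 2 of 82 unigenes at least 4-fold higher in testis and ovary, or 7.32% and 2.44%. ESCRT outside Vps had 1 and 1 of 28, or 3.57% each, and WASH and retriever 1 and 2 of 16, or 6.25% and 12.5%. COG had 1 and 0 of 9, or 11.1% and 0%. The exocyst and the remaining COPI subunits had 0 on either side, of 24 and 4. Factors of translocation had 0 and 2 of 26, or 0% and 7.69%. Their interval excluded the median ratio toward ovary for 51.9% and toward testis for 25.9%, beside 30.1% and 27.5% of all unigenes. Within number ranges their median was -0.52, and 4 lay 4-fold or more toward ovary and 0 toward testis. For WASH and retriever the interval shares were 50% and 18.8%, with 75% of those unigenes in the lower number range. The medians of these lists ran from -0.46 for WASH and retriever to 0.54 for the exocyst. In the adaptor list an ap1s3b unigene (Unigene_17860) had 331 ovary and 20 testis reads, and a cltca unigene 6 and 54.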

How the data were processed

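RNA sequencing libraries of testis and ovary, 1 each, were compared. In the deposited tables the values are a signal, baseMeanA and baseMeanB per the file headers, which were computed here to be whole multiples of 2.31 units in A and 1.73 in B, within 0.01, for 99.99% of values and for all 339 members. Such a step was counted as 1 read. The product of the steps was 4, and a step may hold more than 1 read, which was not tested. Since the values fall on whole steps, the intervals take the step as the unit of counting. The log2 fold change in the deposited table equals log2 of B over A, as recomputed here within 0.001 for all 22487 unigenes of the table. The p-value is the authors' own, per the file headers. For aligner, counting tool and build the entry is: not given in the sources used here. Rows for 147 testis list unigenes absent from the table were added, and 2 blank rows were left out. No count model was fitted, since 1 library per tissue leaves no spread between replicates.

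Scores used a pseudocount of 1 unit, counts a floor of 5 units and a 4-fold threshold, and folds no pseudocount. The log2(value + 1) scale understates differences of low unigenes. Scripts ran in Python 3.11.15 with numpy 2.4.6, pandas 2.3.3 and scipy 1.17.1, and were tested on simulated data. Of the 136 member symbols, 67 matched a symbol in RefSeq assembly ASM1834038v1, used for names only. Members, lists and the number boundary were chosen with earlier results of these data known. Unigenes were named by a rule: the 3 highest and 3 lowest scores of each role with at least 10 units, the 10 members with most units in each library, those in an authors' list, the unigenes of the 6 symbols of widest range, and rab5, rab7, rab11, arf1, arf6, vps35, sec61a, sec23, stx5, trappc3, copb1, copb2 and copg. Other members and genes are named for completeness within a complex or beside these, after their values were seen. The gene rab3il1 was placed with the Rab partners, and chmp genes were kept out of the Rab regulators.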

Additional observations from a re-analysis of the deposited data

How the results depend on the processing

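The main counts were 40 members 4-fold or more toward testis and 16 toward ovary, with a median score of 0.43. Pseudocounts of 0.1 and 10, no filter, a floor of 20 units, a trimmed mean of log ratios and the expression table alone left the median between 0.24 and 0.45 and the ovary count at 16 or 17. The testis count was 18 with a pseudocount of 10, and the cause was not tested. Under the others of these settings it ran from 32 to 41. As deposited, the counts were 16 and 45 and the median -0.40. With equal totals the counts were 76 and 7 and the median 1.18. Relative to the same number range the testis count was 13 and the median 0.15, with 15 in ovary. With the unigenes of a symbol summed the counts, then of symbols, were 11 and 6 and the median 0.63. A 2-fold threshold gave 97 and 57, and an 8-fold threshold 13 and 6. Of the 144 unigenes that the naming rule takes, many had scores outside their main interval under another setting. These were 84 as deposited, 80 with equal totals, 102 relative to the same number range and 67 with unigenes summed. A pseudocount of 10 gave 16. There were 0 with a pseudocount of 0.1, no filter, a floor of 20 units, a trimmed mean or the expression table alone. Changes of sign were counted only for unigenes called 4-fold apart, and were 3, all by summing. The rab3da unigene numbered 57636 went to -1.51, the rab3ip unigene numbered 8424 to 1.10 and the vps13a unigene numbered 20364 to 1.52, by the construction of that alternative. No paired analysis was possible because each tissue has 1 library. Members with few reads are limited by depth, since 35 have under 10 reads in all.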
